A study of Mus musculus with 16 samples.

Results

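The genes described here encode digestive enzymes of the intestinal brush border, the microvillus-covered apical surface of absorptive cells. The 9 members were fixed by name and comprise the disaccharidases *Sis*, *Mgam*, *Lct* and *Treh*, the peptidases *Anpep*, *Enpep* and *Dpp4*, the protease *Tmprss15* and the alkaline phosphatase *Alpi*, out of 45513 genes counted. Each symbol matched 1 Ensembl gene. All 9 members passed the filter on low counts, which kept 15323 genes.

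RNA was sequenced from epithelial cells of the small intestine of 8 adult mice, and 2 libraries were made per mouse, so that 16 libraries were available. All mice carried Atoh1(WT)CreERT2 in homozygous form, with the inducible recombinase placed after the *Atoh1* coding sequence, and the R26RtdTom reporter in heterozygous form, on a C57BL/6 background, and the labels give no age. All had received tamoxifen at 1 mg per day for 3 days. The sort kept live EpCAM+ (epithelial) cells and split them into tdTom+ cells, in which *Atoh1* had been expressed in the cell or its ancestor, and tdTom− cells, in which the reporter had not recombined. Both fractions therefore shared genotype, treatment and mouse, and differed in the reporter. The tissue was the proximal small intestine. The fraction richest in villi had been discarded before sorting and fractions enriched in crypts were pooled. The share of crypt cells among the sorted cells is not given. Cells that escaped recombination are part of the tdTom− fraction, and *Atoh1* in both fractions was transcribed from the modified locus. Assigned counts ranged from 17116405 to 25323567 per library.

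Starch, sucrose, milk sugar, trehalose and peptides are cut into absorbable pieces by enzymes anchored in the apical membrane, and their products are carried into the cell by neighbouring transporters. Expression of these enzymes is low in the crypt and rises as cells of the absorptive lineage migrate onto the villus, which makes them standard markers of enterocyte maturation. Goblet, Paneth and enteroendocrine cells arise from the other, *Atoh1*-dependent branch. Tuft cells are left out of this grouping. The paper found them without tdTom label soon after tamoxifen. Enteroendocrine cells were unlabelled then too, but the paper found them labelled some days later. In the present libraries the 6 tuft markers tested were higher in tdTom+ cells. The promoters of several brush border genes are known targets of HNF1, HNF4, GATA and CDX factors.

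The promoters were examined first, since these sequences are what the members could share at the DNA level. A set of 4 short motifs, given here as letters and searched on both strands, was looked for in the RefSeq promoters. These ran from 250 bases before to 50 bases after the start site, in GRCm38.p6. The reads behind the count files had been aligned to GRCm38.p3, another patch of the same build. The letters searched for HNF1 were GTTAAT. Those for GATA factors were AGATAA. Those for CDX factors were TTTAT, a short core. Those for HNF4 were CAAAGTCCA. The 250 bases before the start site are shown for 4 members, 5′ to 3′ on the gene's own strand, with every match in capitals. These 4 were chosen because together they hold a match to each motif and include the disaccharidases with the smaller and the larger difference between fractions.
Sis: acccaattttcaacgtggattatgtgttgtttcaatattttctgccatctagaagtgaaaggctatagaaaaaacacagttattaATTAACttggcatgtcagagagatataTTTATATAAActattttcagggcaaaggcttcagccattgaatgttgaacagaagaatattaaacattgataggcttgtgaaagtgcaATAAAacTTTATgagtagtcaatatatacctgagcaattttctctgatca
Lct: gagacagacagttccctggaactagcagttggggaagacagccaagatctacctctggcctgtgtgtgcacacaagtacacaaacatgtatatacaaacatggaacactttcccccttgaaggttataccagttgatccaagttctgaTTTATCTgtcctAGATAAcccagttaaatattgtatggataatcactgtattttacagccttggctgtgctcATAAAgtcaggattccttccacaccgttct
Treh: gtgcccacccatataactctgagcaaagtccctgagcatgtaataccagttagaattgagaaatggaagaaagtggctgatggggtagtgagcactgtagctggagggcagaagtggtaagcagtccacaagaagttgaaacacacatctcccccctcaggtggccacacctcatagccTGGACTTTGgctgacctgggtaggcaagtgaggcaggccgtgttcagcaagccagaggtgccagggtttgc
Alpi: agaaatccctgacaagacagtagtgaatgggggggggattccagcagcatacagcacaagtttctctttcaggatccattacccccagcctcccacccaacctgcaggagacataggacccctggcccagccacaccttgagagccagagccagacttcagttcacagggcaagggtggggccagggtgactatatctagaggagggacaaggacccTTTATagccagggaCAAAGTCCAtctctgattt
The stretch of *Sis* is chr3:72967864-72968113 (minus strand), that of *Lct* chr1:128328319-128328568 (minus), that of *Treh* chr9:44672983-44673232 (plus) and that of *Alpi* chr1:87101607-87101856 (minus).

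The HNF1 motif was found in 2 of 9 members, *Sis* at −165 to −160 and *Tmprss15* at −44 to −39, and in 7.1% of 32851 promoters of the same length. The HNF4 motif was also found in 2 of 9, *Treh* at −71 to −63 and *Alpi* at −19 to −11, and in 0.475% of all promoters. The GATA motif was present in *Lct*, *Mgam* and *Dpp4* (3 of 9, against 11.2% of all promoters). The short CDX core occurred in 7 of 9 members, all but *Treh* and *Anpep*, and in 40.0% of all promoters. The shares over all promoters were not matched for base content, and the CDX core holds only A and T. In the 7 members with a CDX match, G and C made up from 34.0% (*Sis*) to 56.3% (*Alpi*) of the promoter. One CDX match of *Lct*, at −102 to −98, overlapped its GATA match at −101 to −96. The CDX matches of *Lct*, *Mgam* and *Alpi* between −33 and −25 lie where a TATA box would be, and its letters overlap the CDX core. No match was found in the promoter of *Anpep*, the member richest in G and C (72.3%, against a median of 52.7% over all promoters). A match is a string of letters, and binding was not measured in these libraries.

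**Figure D1:**
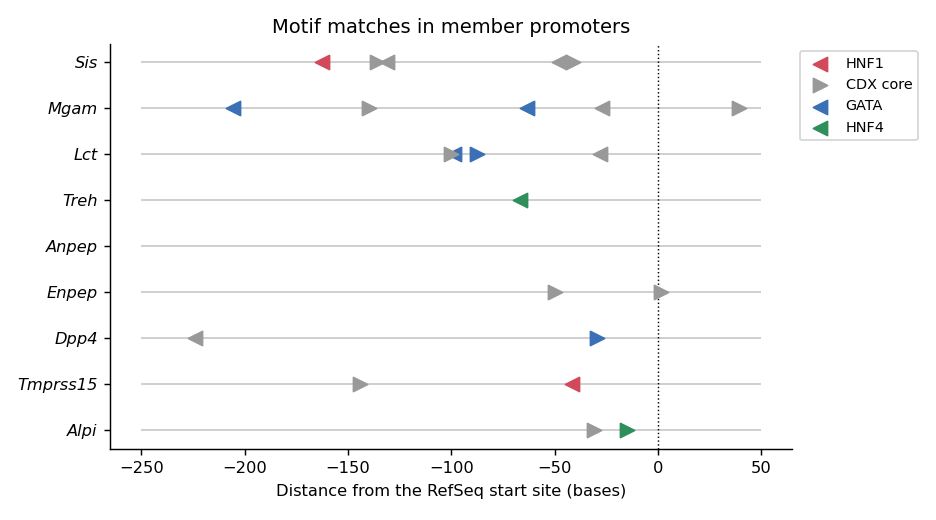
Matches to 4 motifs in the RefSeq promoters of the 9 members, by distance from the start site in bases. Triangles point right for the plus strand of the gene and left for the minus strand. *Sis* and *Tmprss15* hold an HNF1 match, *Treh* and *Alpi* an HNF4 match, and *Anpep* holds none of the 4 motifs.

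The comparison of tdTom+ with tdTom− cells asks how far brush border enzyme transcripts separate the secretory from the absorptive side of the epithelium. All 9 members were lower in tdTom+ cells and none was higher (edgeR quasi-likelihood test with the mouse as a block, adjusted p under 0.01). Of all genes tested, 30.0% were called lower and 25.8% higher in tdTom+ cells. Log2 fold changes of the members ran from -4.33 to -2.25 with a median of -2.77, whereas the median of all genes tested was 0.017. Every member was lower in tdTom+ cells in 8 of 8 mice, and the highest tdTom+ library lay below the lowest tdTom− library for 9 of 9 members, which was so for 17.0% of all genes. Together the members held 1.73% ± 0.473 of the assigned counts of a tdTom− library and 0.263% ± 0.088 of those of a tdTom+ library (SD, 8 mice). In these bulk samples, fewer cells of a type and less RNA per cell cannot be told apart.

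The count of genes called in each direction depended on the setting, unlike the members. Lower genes made up 53.8% of all calls, but 43.6% after thinning to an equal depth, 43.0% when at least 10 counts were required in every library and 44.5% without mouse 3. In these 3 settings the median of all genes moved to 0.12. Total counts in place of TMM factors gave 59.3%, whereas RLE factors gave 52.8% and TMM without the 10 most counted genes gave 53.4%. The members remained far from that shift, with log2 fold changes from -4.26 (*Tmprss15*) to -2.14 (*Mgam*) after thinning.

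**Figure D2:**
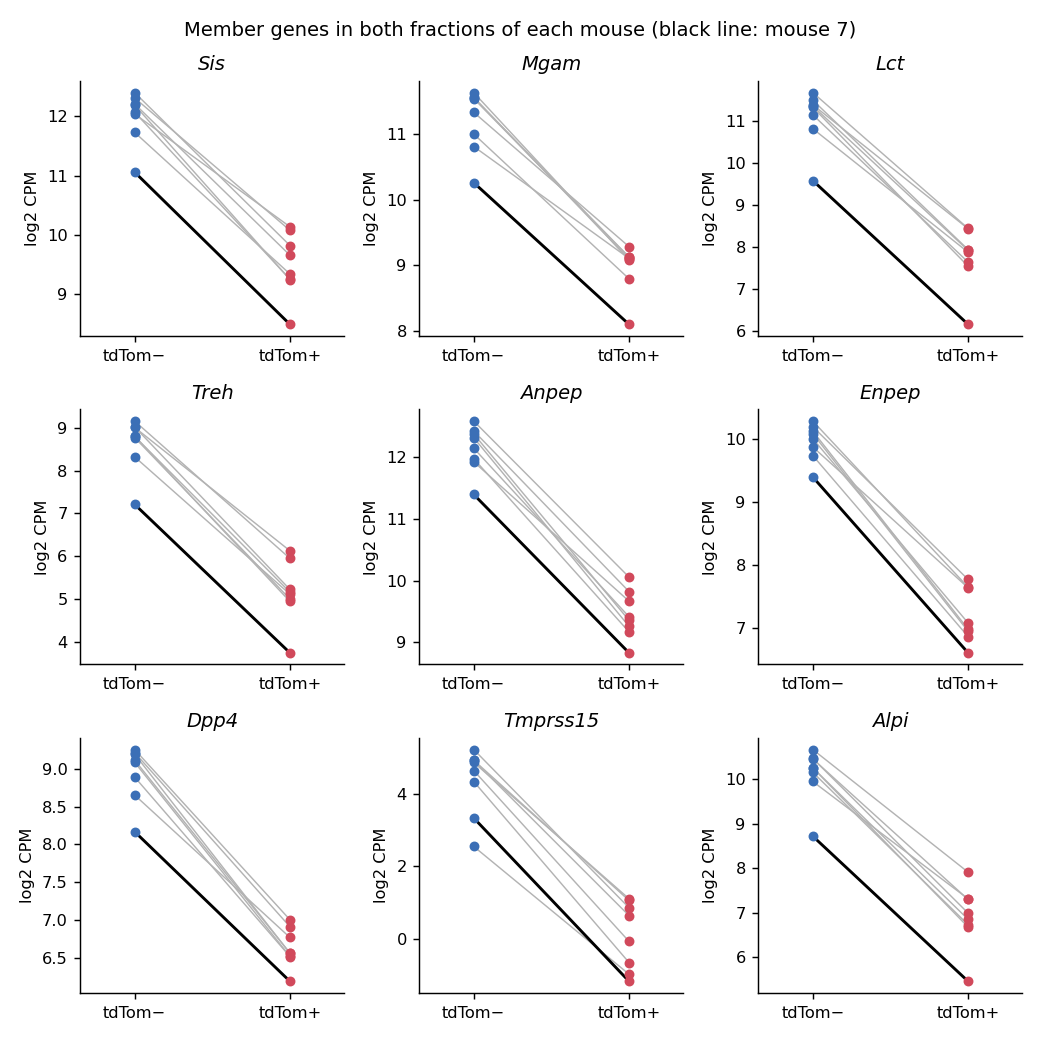
Log2 CPM of each member in the tdTom− (blue) and tdTom+ (red) library of each of 8 mice, with a line joining the libraries of a mouse. In every panel all 8 lines fall from left to right. Mouse 7 (black) is the lowest tdTom+ library of all 9 members and the lowest tdTom− library of all but *Tmprss15*.

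The alpha-glucosidases were the disaccharidases with the smaller differences. *Sis* (ENSMUSG00000027790, chromosome 3, 72888557 to 72967863, minus strand, GRCm38) encodes sucrase-isomaltase, which splits sucrose and the branch points of starch. Its level in CPM, the count scaled to a common library size with TMM factors, was 2129 at the lowest, 4472 at the median and 5409 at the highest in the 8 tdTom− libraries, and 361, 729 and 1130 in the tdTom+ libraries. The fractions did not overlap, and the log2 fold change was -2.49 (SE 0.11, adjusted p = 2.02e-10, edgeR), a level 5.63-fold lower in tdTom+ cells. *Mgam* (ENSMUSG00000068587, chromosome 6, 40628831 to 40769123, plus strand) encodes maltase-glucoamylase, a relative of sucrase-isomaltase that releases glucose from the ends of starch fragments. Its CPM was 1228, 2779 and 3170 at the lowest, median and highest in tdTom− and 275, 549 and 624 in tdTom+ libraries. The log2 fold change of *Mgam* was -2.25 (SE 0.10, adjusted p = 1.39e-10, edgeR), or 4.74-fold lower, the smallest difference among the 9 members. In both genes the tdTom− libraries of mice 7, 4 and 8 were the lowest of the 8.

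*Lct* and *Treh* differed more. *Lct* (ENSMUSG00000026354, chromosome 1, 128284756 to 128328318, minus strand) encodes lactase, which splits milk sugar and is most abundant before weaning. Its CPM in tdTom− libraries was 767 at the lowest, 2599 at the median and 3285 at the highest, and in tdTom+ libraries 71.2, 239 and 348. The difference was -3.36 on the log2 scale (SE 0.10, adjusted p = 7.35e-12, edgeR), or 10.3-fold lower. *Treh* (ENSMUSG00000032098, chromosome 9, 44673233 to 44686305, plus strand) encodes trehalase, which splits the sugar of fungi and insects. It was at 148, 447 and 572 CPM at the lowest, median and highest of the tdTom− libraries and at 13.2, 35.0 and 69.7 CPM in those of tdTom+ cells. Its log2 fold change was -3.48 (SE 0.11, adjusted p = 1.14e-11, edgeR), which is 11.2-fold lower. Mouse 7 was the lowest library of both genes in both fractions, and within the tdTom+ fraction mice 5 and 6 were the highest.

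Among the membrane peptidases, the log2 fold change of *Dpp4* lay between those of the alpha-glucosidases, and those of *Anpep* and *Enpep* lay below both. *Anpep* (ENSMUSG00000039062, chromosome 7, 79821803 to 79848210, minus strand) encodes aminopeptidase N, a zinc enzyme that removes neutral residues from the amino end of peptides. It had 2711, 4815 and 6170 CPM at the lowest, median and highest in tdTom− and 455, 670 and 1066 CPM in tdTom+ libraries, and its log2 fold change was -2.70 (SE 0.10, adjusted p = 3.27e-11, edgeR). *Enpep* (ENSMUSG00000028024, chromosome 3, 129269175 to 129332720, minus strand) encodes aminopeptidase A, which removes acidic residues and also cleaves angiotensin II. It ranged from 672 to 1247 CPM (median 1054) in tdTom− and from 97.1 to 218 CPM (median 130) in tdTom+ libraries, a log2 difference of -2.77 (SE 0.10, adjusted p = 4.57e-11, edgeR). These equal 6.49-fold and 6.82-fold lower levels in tdTom+ cells. *Dpp4* (ENSMUSG00000035000, chromosome 2, 62330073 to 62412231, minus strand) encodes dipeptidyl peptidase IV, which removes dipeptides after proline or alanine and inactivates incretin hormones. Its lowest, median and highest CPM were 287, 548 and 611 in tdTom− and 72.7, 94.2 and 128 in tdTom+ libraries. The log2 fold change was -2.32 (SE 0.09, adjusted p = 5.56e-11, edgeR), or 4.99-fold lower. *Dpp4* had the smallest relative spread between mice in the tdTom+ fraction (coefficient of variation 17.8%), and *Enpep* that in the tdTom− fraction (18.4%).

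*Tmprss15* stood at the low end of abundance and had the largest difference. The gene (ENSMUSG00000022857, chromosome 16, 78953008 to 79091097, minus strand) encodes enteropeptidase, the duodenal serine protease that activates pancreatic trypsinogen. Its raw count was 136 to 762 per tdTom− library, against 7 to 47 per tdTom+ library. In CPM these were 5.74 at the lowest, 26.8 at the median and 36.9 at the highest in tdTom−, and 0.351, 1.16 and 2.06 in tdTom+ libraries. The fractions did not overlap, and the log2 fold change was -4.33 (SE 0.14, adjusted p = 1.19e-11, edgeR), 20.1-fold lower, which ranked 9 from the lowest among the 15323 genes tested. The spread between mice was also the widest of the 9 members, with a coefficient of variation of 46.1% in tdTom− and 60.9% in tdTom+ libraries. Its lowest tdTom− library was that of mouse 8, the only case in which mouse 7 was not the lowest.

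*Alpi* (ENSMUSG00000079440, chromosome 1, 87098002 to 87101606, minus strand) encodes intestinal alkaline phosphatase, which removes phosphate from lipopolysaccharide and nucleotides and is the classic histochemical marker of the brush border. It was at 421, 1220 and 1618 CPM at the lowest, median and highest in tdTom− and at 44.0, 121 and 241 CPM in tdTom+ libraries. The log2 fold change was -3.21 (SE 0.11, adjusted p = 2.33e-11, edgeR), or 9.23-fold lower. The mouse genome holds close relatives of *Alpi*, and reads shared between near-identical copies would be counted at 1 of them only. *Akp3*, which lies in the same family, averaged 111 CPM in the tdTom− and 14.8 CPM in the tdTom+ fraction (log2 fold change -2.94), and *Alppl2* at 4.23 and 1.40 CPM (-1.61). Both relatives were thus far less abundant than *Alpi* in CPM and were lower in tdTom+ cells too (edgeR, adjusted p = 2.56e-11 and 9.27e-07).

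What was left of each transcript in tdTom+ cells, as the percentage of the CPM in the tdTom− library of the same mouse, gave an order of the members. It averaged 5.03% ± 1.77 for *Tmprss15*, 9.15% ± 2.35 for *Treh*, 9.93% ± 2.07 for *Lct* and 11.1% ± 2.86 for *Alpi*. For the others it was 15.0% ± 3.49 for *Enpep*, 15.6% ± 2.89 for *Anpep*, 18.2% ± 4.35 for *Sis*, 20.4% ± 4.01 for *Dpp4* and 21.5% ± 4.44 for *Mgam* (SD, n = 8 mice throughout). The percentage was highest in mouse 8 for 8 of 9 members, from 7.23% of *Tmprss15* to 30.7% of *Mgam*, and in mouse 5 for *Treh* (13.5%). It was lowest in mouse 1 for 5 members, in mouse 4 for 3 and in mouse 3 for *Dpp4*.

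**Figure D3:**
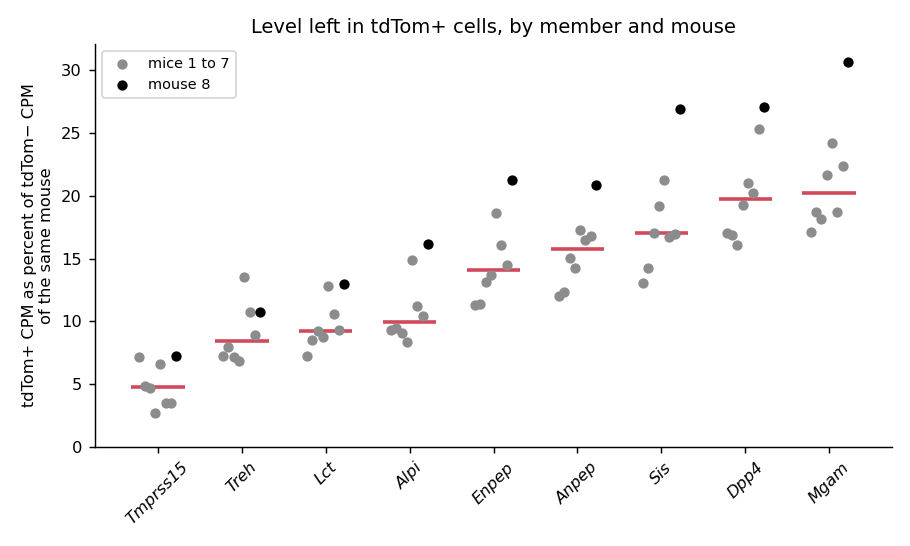
Level in tdTom+ cells as a percentage of the level in tdTom− cells of the same mouse, for the 9 members in the order of their log2 fold change. Each point is a mouse, the red bar is the median of 8 mice and black points are mouse 8. *Tmprss15* lies between 2.71% and 7.23%, and *Mgam* between 17.1% and 30.7%.

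Whether neighbours in this order differed was asked with a two-sided exact test that flips signs over the 8 mice, applied to the difference of the log2 ratios of 2 members, in which the scaling of the libraries cancels. Of the 8 neighbouring pairs, 3 passed at an adjusted p under 0.05. *Tmprss15* lay below *Treh* by -0.75 ± 0.49 log2 units in 7 of 8 mice (exact p = 0.0156, adjusted 0.0417). *Alpi* lay below *Enpep* by -0.43 ± 0.15 and *Anpep* below *Sis* by -0.20 ± 0.15, each in 8 of 8 mice (SD; exact p = 0.00781, the smallest the test allows, adjusted 0.0312). The other 5 neighbours did not pass, with mean differences between -0.17 and -0.07 log2 units and adjusted exact p from 0.0781 (*Lct* and *Alpi*) to 0.172 (*Dpp4* and *Mgam*). Without the pairing by mouse (no replicate block), 1 of the 8 neighbours passed. When a mouse was left out, 3 neighbours passed without mouse 1 and 0 passed without any other mouse. With 7 mice the smallest exact p is 0.0156, which becomes 0.0625 when 2 of 8 pairs reach it. Leaving out a mouse could therefore end these calls through the number of mice alone.

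In a test of all 36 pairs of members, added after these values were seen, 32 pairs differed, and the 4 that did not pass were *Treh* and *Lct*, *Enpep* and *Anpep*, *Sis* and *Dpp4*, and *Dpp4* and *Mgam*. The count was 31 or 32 when any mouse was left out and 27 without the pairing. *Lct* and *Alpi* passed among the 36 pairs and not among the 8, at the same difference of -0.15 ± 0.15 (SD, 8 mice), so this pair is at the limit of what the test separates. The order does not follow the kind of substrate. Disaccharidases stood both among those lowest in tdTom+ cells (*Treh*, *Lct*) and among those with most left (*Sis*, *Mgam*).

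Levels of different members were compared per exon length, in RPKM, the CPM divided by the exon length in kilobases. In tdTom− cells *Anpep* was the most abundant at 1202 ± 282 RPKM, followed by *Sis* (568 ± 140), *Alpi* (503 ± 154), *Mgam* (382 ± 109) and *Lct* (369 ± 121). Below these came *Enpep* (215 ± 39.6), *Treh* (208 ± 65.9), *Dpp4* (80.1 ± 17.8) and *Tmprss15* (5.57 ± 2.57; SD, n = 8 libraries throughout). By the same exact test on log2 RPKM, *Anpep* exceeded *Sis*, *Lct* exceeded *Enpep*, *Treh* exceeded *Dpp4* and *Dpp4* exceeded *Tmprss15* (adjusted exact p from 0.0208 to 0.0312). The neighbours among *Sis*, *Alpi*, *Mgam* and *Lct*, and *Enpep* and *Treh*, did not pass (adjusted exact p from 0.05 to 0.523).

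In tdTom+ cells the order was much the same at lower levels. *Anpep* led at 186 ± 50.7 RPKM, ahead of *Sis* (103 ± 35.1), *Mgam* (79.0 ± 16.6), *Alpi* (56.3 ± 24.4), *Lct* (36.6 ± 13.9) and *Enpep* (32.2 ± 9.80). *Treh* (19.2 ± 8.80), *Dpp4* (15.9 ± 2.82) and *Tmprss15* (0.281 ± 0.171) were the lowest (SD, n = 8 libraries throughout). Here 6 of 8 neighbours differed (adjusted exact p from 0.0156 to 0.0417), and *Lct* with *Enpep* and *Treh* with *Dpp4* did not. Without the pairing by mouse (no replicate block), 3 of 8 differed. *Mgam* stood above *Alpi* in tdTom+ cells, by 0.59 ± 0.39 log2 RPKM in 7 of 8 mice, and below it in mean level in tdTom− cells, by 0.37 ± 0.32 in 6 of 8 mice (SD), where the test did not pass.

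**Figure D4:**
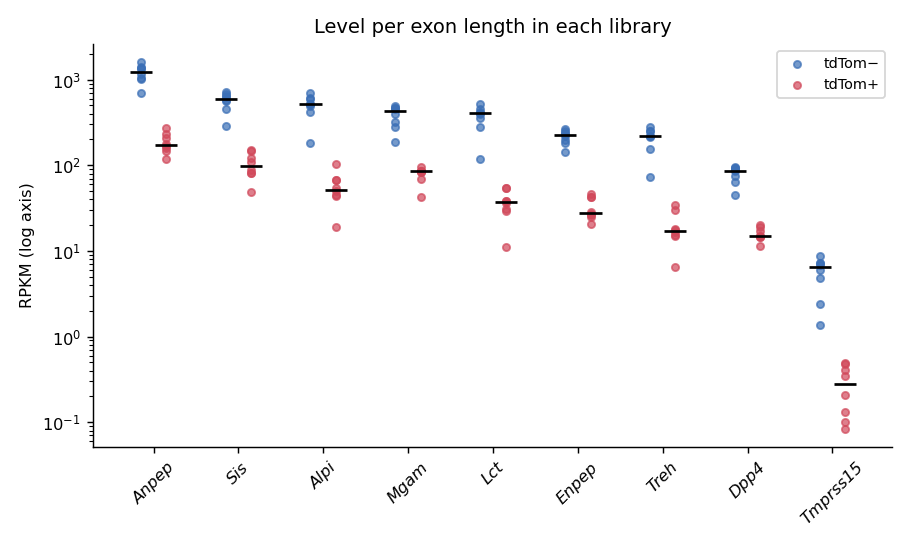
Level of each member per exon length in the 8 tdTom− (blue) and 8 tdTom+ (red) libraries, in RPKM on a log axis, ordered by the mean in tdTom− cells. Black bars are medians. *Anpep* is the highest and *Tmprss15* the lowest in both fractions, and no member's fractions overlap.

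Mice with more of a member in tdTom− cells tended to have more of it in tdTom+ cells, but this rested on few mice. Over the 8 mice, Pearson's r between the log2 CPM of the fractions ran from 0.665 (*Enpep*) to 0.913 (*Lct*), and 7 of the 9 relations passed at an adjusted exact permutation p under 0.05. Spearman's rho ran from 0.262 (*Mgam*) to 0.881 (*Lct*), and 0 of 9 passed after adjustment, with 5 of 9 at an unadjusted exact permutation p under 0.05. Without the 2 mice farthest from the median, which always included mouse 7, 0 of 9 passed. The r of *Tmprss15* was then 0.856 with an unadjusted exact permutation p of 0.0236, that of *Treh* 0.795, and that of *Alpi* -0.04.

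Both libraries of mouse 7 were low in the members as a group and in other absorptive genes. In the tdTom− library the summed CPM over the 9 members was 8372, against 14350 to 21030 in the other mice. The 7 absorptive marker genes (*Fabp1*, *Fabp2*, *Apoa1*, *Apoa4*, *Apob*, *Rbp2* and *Vil1*) summed to 14350 CPM there, against 22440 to 36570. In the same library 8 stem cell markers summed to 2809 CPM against 1118 to 1757. Its 8 immune markers, *Lyz2* included, summed to 136.1 CPM, against 144.4 in mouse 8 and 22.18 to 50.43 in the others. Its 8 tuft markers summed to 17.47 CPM against 31.63 to 102.2. Without mouse 7 the log2 fold changes of the members ran from -4.29 (*Tmprss15*) to -2.25 (*Mgam*), and each was called lower. The tdTom+ library of mouse 7 was also the lowest in the members, with a sum of 1390 CPM against 2211 to 3775. Its absorptive markers summed to 1970 CPM against 3062 to 6009, its Paneth markers to 139500 CPM against 52680 to 97280 and its goblet markers to 128100 CPM against 132900 to 264200. The part of these marker levels in the values of mouse 7 was not tested.

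Over mice, the members moved together within a fraction. The deviation of a member's log2 CPM from its fraction mean correlated with the mean deviation of the other 8 members with r from 0.839 (*Enpep*) to 0.961 (*Treh*) over the 16 libraries, apart from *Tmprss15* (0.589). For *Tmprss15*, r was 0.713 in tdTom− and 0.474 in tdTom+ libraries. Libraries of a mouse share the animal and its dissociation, so these values are descriptions. Among 8932 other genes with a mean of at least 10 CPM, the 5 whose deviations were most like the mean of the members were *Lrp1* (r = 0.984), *Cyp3a13* (0.982), *Apoc3* (0.977), *Unc93a* (0.977) and *Apoa4* (0.976). All 5 were lower in tdTom+ cells, with log2 fold changes from -3.65 (*Apoa4*) to -2.27 (*Lrp1*).

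Other apical enzymes, nutrient carriers and enterocyte transcription factors were examined as 4 lists. Each was read against the 30.0% of all genes called lower and the median of 0.017 over all genes. Of 10 other apical peptidases, 9 were tested and 9 were lower in tdTom+ cells, with a median log2 fold change of -3.02. The largest differences were those of *Ggt1* (-3.50), which breaks down glutathione, and *Ace* (-3.36), angiotensin-converting enzyme, and the smallest those of *Mep1a* (-2.46), a subunit of the metalloprotease meprin, and *Xpnpep2* (-1.02), an aminopeptidase for bonds before proline. *Folh1* was not tested, with at most 1 library above 0. The values of 8 of these 9 genes, all but *Xpnpep2*, lay within the range of the members.

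Of 13 transporter genes for sugars, peptides and amino acids, 12 were lower and none was called higher, with a median of -2.11. *Slc15a1*, the carrier of di- and tripeptides released by the peptidases, had the lowest value (-3.16), followed by *Slc6a19* (-3.13), the main carrier of neutral amino acids. *Slc1a1*, a glutamate carrier, was lower by -0.64 (adjusted p = 6.14e-05, edgeR). *Cltrn*, which encodes collectrin, the partner of the *Slc6a19* product in the kidney, was near the detection limit with a mean of 0.628 CPM in the tdTom− and 0.971 CPM in the tdTom+ fraction (log2 fold change 0.68, adjusted p = 0.0195, edgeR) and passed as higher at a threshold of 0.05 or without mouse 2.

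Of 8 apical phosphatases and lipid hydrolases, 5 were lower and none was called higher, with a median of -1.45. *Enpp7*, the alkaline sphingomyelinase, was lowest at -3.53, followed by *Akp3* (-2.94). At the other end, *Plb1*, a phospholipase, was at 5.12 and 4.25 CPM in tdTom− and tdTom+ libraries (0.07, adjusted p = 0.868), and *Alpl*, the tissue-nonspecific alkaline phosphatase, at 0.420 and 0.701 CPM (0.78, adjusted p = 0.0153, edgeR). *Alpl* passed as higher at a threshold of 0.05, after thinning, or without mouse 3. Of the alkaline phosphatase genes, *Alpi*, *Akp3* and *Alppl2* were thus lower, whereas *Alpl* was near the detection limit and its call depended on the setting.

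Transcription factor genes with known roles in enterocytes had a smaller median difference than the enzymes. Of 11 such genes, 9 were lower and 1 was higher in tdTom+ cells, with a median of -0.40. *Maf* (-2.54) and *Hnf4g* (-2.0) were lowest. *Hnf4a*, which binds the same motif as *Hnf4g*, averaged 609 CPM in the tdTom− and 593 CPM in the tdTom+ fraction (-0.04, adjusted p = 0.613, edgeR). *Cdx1* was higher in tdTom+ cells, at 167 against 86.5 CPM (0.96, adjusted p = 6.2e-07, edgeR). Without the pairing by mouse (no replicate block), 8 of the 11 were lower, and the count was 8 or 9 under the other alternatives too.

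**Figure D5:**
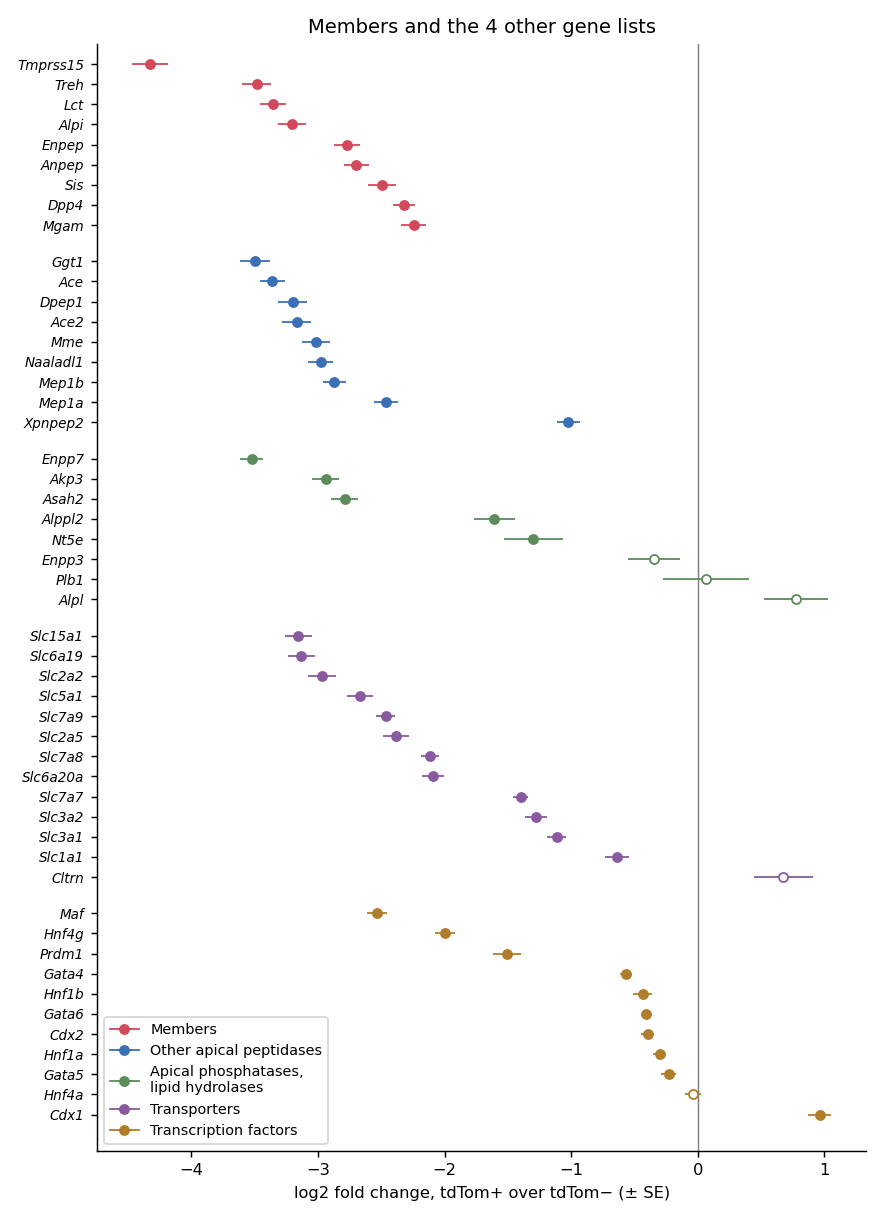
Log2 fold change of tdTom+ over tdTom− cells with its standard error (edgeR with the mouse as a block) for the 9 members and the tested genes of the 4 lists. Filled points have an adjusted p under 0.01 and open points do not. The members span -4.33 to -2.25, and most transcription factor genes lie between -0.57 and 0.

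Markers of cell types were read beside the members. The 7 absorptive markers were all lower in tdTom+ cells, with a median of -2.92, close to that of the members. All 8 goblet, 8 Paneth and 8 enteroendocrine markers and the 6 tuft markers tested were higher, as were 4 of 8 stem markers. The absorptive markers that remained in tdTom+ libraries, between 1970 and 6009 CPM in sum against 14350 to 36570 in tdTom− libraries, moved with the members, and their part in the tdTom+ levels of the members was not tested. *Anpep* and *Dpp4* are also known on immune cells. Without *Lyz2*, which Paneth cells share, the immune markers summed to 9.24 to 130 CPM in tdTom− and 5.46 to 24.6 CPM in tdTom+ libraries. The part of immune cells in the levels of *Anpep* and *Dpp4* was not tested. Of the 7 immune markers tested, 5 were lower and *Lyz2* was higher. The stromal markers summed to 4.51 to 9.12 CPM in tdTom− and 20.1 to 47.0 CPM in tdTom+ libraries. Most of that difference was *Vim*, at 2.30 and 23.4 CPM on average. *Pdgfrb* was also called higher, at 0.743 and 1.62 CPM (log2 fold change 1.14, adjusted p = 0.000716, edgeR). *Acta2* (2.37 and 2.11 CPM) and *Pecam1* (0.925 and 1.16 CPM) did not pass, and *Col1a1*, *Col3a1*, *Pdgfra* and *Des* were near 0 in both fractions. The pancreatic markers summed to at most 6.05 CPM, with 3 of 8 at 0 in all libraries. Markers of intestinal regions were mixed. Of the 4 ileal genes, *Fabp6* (0.166 and 0.118 CPM in tdTom− and tdTom+ libraries) and *Slc10a2* (0.282 and 0.305 CPM) were close to 0, whereas *Slc51a* (149 and 26.5 CPM) and *Slc51b* (52.1 and 6.52 CPM) were present and lower in tdTom+ cells. Of the 4 duodenal genes, *Cybrd1* was higher in tdTom+ cells (1.25 and 17.3 CPM), *Slc40a1* (24.4 and 7.42 CPM) and *Gata4* (166 and 112 CPM) were lower, and *Pdx1*, at 6.52 and 7.60 CPM, did not pass.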

How the data were processed

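Epithelial cells of 8 mice were sorted into tdTom+ and tdTom− fractions, and 16 libraries were prepared with a stranded mRNA kit. The authors aligned single-end reads to GRCm38.p3 with TopHat2 2.1.1. The deposited values are raw counts for each Ensembl gene, made by the authors in featureCounts (its header names 1.5.0-p1, the processing notes Subread 1.5.2), summed over exons on the reverse strand from primary alignments, with no normalization. Groups came from the group label and mouse numbers from the titles, which give both libraries of a mouse the same animal number.

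Counts were tested with edgeR 4.0.16 (R 4.3.3): filterByExpr, TMM factors, the quasi-likelihood test with the mouse as a replicate block, and Benjamini-Hochberg adjustment over 15323 genes with a threshold of 0.01. The pairing was checked beforehand: deviations of same-numbered libraries from their group means correlated at 0.426 on average (0.245 to 0.634), those of different numbers at -0.0569, and 8 of 8 libraries matched their own number best. Log2 CPM and log2 RPKM used a prior count of 2, and RPKM the exon length of the count files. Single values were compared with exact tests over mice. The edgeR fit was tested on simulated counts with 200 changed genes, balanced between higher and lower. That simulation does not cover the scaling of libraries in which 8556 genes were called.

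The members and lists were chosen with earlier results of these data known, and 1 absorptive marker of the list is not reported here. Named were all members, of each list the 2 lowest and 2 highest tested genes, the paralogs of *Alpi* and the 5 genes most like the members. Alternatives were RLE factors, total counts, DESeq2 1.42.0 (paired and unpaired), TMM without the 10 most counted genes, limma-voom (limma 3.58.1), other filters, thinning, a threshold of 0.05, a prior count of 0.5 and leaving out each mouse. The study's methods name no block, and the unpaired fit was an alternative.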

Additional observations from a re-analysis of the deposited data

Results flagged for a closer look

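In each fraction, the lowest or highest library of a member was singled out by Dixon's 95% limit on the distance to its neighbour, as a share of the range of the 8 log2 CPM values. The summed share of counts in the members was examined in the same way in each fraction. Among these 20 sets of 8 values, 5 were singled out and chance alone gives 1.0, although the sets are not independent, since the members move together. The summed share was not among them. All 5 were the lowest library and came from mouse 7. In tdTom− cells these were *Lct* (9.58 against 10.82 to 11.68 log2 CPM, gap 0.588 of the range), *Treh* (7.21 against 8.32 to 9.16, gap 0.571) and *Alpi* (8.72 against 9.94 to 10.66, gap 0.632). In tdTom+ cells they were *Lct* (6.16 against 7.54 to 8.44, gap 0.606) and *Mgam* (8.10 against 8.80 to 9.29, gap 0.587). Without mouse 7 the log2 fold changes were -3.35 for *Lct*, -3.48 for *Treh*, -3.20 for *Alpi* and -2.25 for *Mgam*.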

How the results depend on the processing

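Each member kept its direction and its call under every alternative in which it was tested, 170 of 170 values, with log2 fold changes from -4.43 to -4.21 for *Tmprss15* and from -2.32 to -2.11 for *Mgam*. *Tmprss15* was not tested when at least 10 counts were required in every library. Without the replicate block, 7606 genes were called (4133 lower, 3473 higher) in place of 8556, and the block changed no member's call. Neighbours in the order of log2 ratios that differed numbered 1 of 8 without the replicate block (3 with it). They numbered 3 without mouse 1 and 0 without any other mouse, where the smallest possible p limits the test. Neighbours in level per length in tdTom+ cells numbered 3 without the replicate block (6 with it). Relations between fractions numbered 0 without the 2 mice farthest from the median (7 with them). Phosphatases and lipid hydrolases called higher numbered 1 after thinning, 1 at an adjusted p under 0.05 and 0 to 1 when each mouse was left out (0 otherwise, *Alpl*). Transporters called higher numbered 1 at an adjusted p under 0.05 and 0 to 1 when each mouse was left out (0 otherwise, *Cltrn*). Depth limits *Tmprss15* most, with 7 to 47 counts in tdTom+ libraries.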
